A study of Homo sapiens with 12 samples.

Results

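The genes described here encode the proteins of the cytosolic ribosome. They were chosen by symbol from the platform annotation: a gene was taken where a probe set carried 1 symbol only, and that symbol named a numbered protein of the large subunit (RPL) or the small subunit (RPS), with or without a final A, or was RPLP0, RPLP1, RPLP2 or RPSA. This gave 51 of the 19775 genes with such a probe set. Of the 51 genes, 30 encode large-subunit proteins other than the stalk, 2 encode the acidic stalk proteins RPLP1 and RPLP2, and 19 encode small-subunit proteins. They are covered by 109 probe sets, and each gene is represented by the probe set with the highest mean over the arrays.

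RNA was measured on 12 Affymetrix arrays in U937, a human monocytic line derived from a histiocytic lymphoma. Plasmids for green fluorescent protein alone (GFP), for GFP joined to PML-RARA (PRWT) or for GFP joined to PR2VR were delivered by electroporation, and GFP-positive cells were collected by sorting. PML-RARA is the fusion protein of acute promyelocytic leukemia. PR2VR is taken here to be the protease-resistant form in the series title, although its label calls it wild type as well. Each construct was measured at 6 h and at 9 h on 2 arrays, numbered 1 and 2 in the titles, so that there were 6 groups of 2. The titles count the hours of the fusion arrays from infection and those of the GFP arrays from transfection. All groups express GFP, and every array is of U937 cells. The labels do not say whether the numbers stand for separate transfections, so p-values measure the spread between these samples only, which may be technical.

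Ribosomal proteins coat and stabilise the ribosomal RNA, and most are needed in equal amounts, 1 copy per ribosome, while the stalk proteins are present in several copies and help to recruit the translation factors. Their messenger RNAs are among the most abundant in growing cells. Most begin with a C followed by a run of pyrimidines, the terminal oligopyrimidine (TOP) start, through which nutrient and growth signalling by mTOR and LARP1 sets their translation and stability. Free RPL5 and RPL11, with 5S RNA, bind MDM2 and so link ribosome assembly to p53.

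The sequence shared by these genes at the start of transcription is shown first, because the rule for choosing them did not use it. RefSeq promoter entries of GRCh38.p14 were matched by symbol for 45 of the 51 genes, with 52 promoters. A run of 6 or more C or T letters on the gene's own strand, reaching to within 5 bases of the annotated start, stood in 42 of these 52 promoters (80.8%), against 22.2% of the 35116 promoters of all genes. The median length of the run was 11 letters in the ribosomal protein promoters and 4 in all promoters. In the 300 bases of each promoter, searched on both strands, CCGGAAG was found in 38.5% against 10.3% of all promoters, CTTTCC in 44.2% against 26.3%, and TATAAA in 5.77% against 11.5%. The lines below give 30 bases, from 10 before the start to 20 from it, with the longest run near the start in capitals, for 6 genes that passed as higher in the number 2 arrays at both hours. Where a gene has several entries, the one with the longest run is shown.
RPL34 (chr4:108620566-108620595, plus strand): CTTTTTTCTTCCTCTTCCggggacgttgtc
RPL35 (chr9:124861938-124861967, minus strand): cgcctaCTTCCTCTTTCCCTCggagcgggc
RPL35A (chr3:197950180-197950209, plus strand): gggcctcgTCCTTCTCTTaccgccatcttg
RPL36 (chr19:5690285-5690314, plus strand): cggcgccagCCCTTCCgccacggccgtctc
RPS9 (chr19:54200848-54200877, plus strand): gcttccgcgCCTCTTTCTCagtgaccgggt
RPS24 (chr10:78033853-78033882, plus strand): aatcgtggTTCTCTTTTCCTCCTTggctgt

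For comparison, the same windows follow for the 8 genes that passed as lower in the number 2 arrays at 9 h.
RPL9 (chr4:39458903-39458932, minus strand): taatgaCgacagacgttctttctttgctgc
RPL10A (chr6:35468391-35468420, plus strand): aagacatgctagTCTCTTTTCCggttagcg
RPL14 (chr3:40457329-40457358, plus strand): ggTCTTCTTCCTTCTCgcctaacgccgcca
RPL32 (chr3:12840431-12840460, minus strand): ggtgacccttgaCCTCCTgggatcgcatct
RPL37A (chr2:216498834-216498863, plus strand): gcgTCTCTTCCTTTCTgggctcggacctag
RPLP2 (chr11:809957-809986, plus strand): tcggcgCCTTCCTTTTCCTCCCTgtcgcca
RPS10 (chr6:34426050-34426079, minus strand): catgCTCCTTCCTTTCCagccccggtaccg
RPS18 (chr6:33272065-33272094, plus strand): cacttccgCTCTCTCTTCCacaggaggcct

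The runs of the 7 genes that passed as higher at 9 h spanned 7 to 18 letters (median 10), and those of the 8 lower genes spanned 1 to 17 (median 12). The lengths of the runs thus overlapped between the groups that moved in opposite directions.

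Every array had the same trimmed mean signal of 1500.2. The median signal was 387.8 to 436.0 on the 3 arrays of number 2 at 9 h and 238.6 to 292.1 on the other 9. The ratio of GAPDH 3′ to 5′ signal, a measure of how complete the labelled RNA is, was 2.21 to 2.75 on those 3 arrays and 3.82 to 12.93 on the others. The same ratio for actin was 7.79 to 10.67 on those 3 arrays and 12.49 to 58.22 on the others. The labels were checked on RARA, whose probe set read 48.2 to 309.2 on GFP arrays, 11970.8 to 58985 on PRWT arrays and 9281.2 to 41097.2 on PR2VR arrays. The PML probe set overlapped, at 4082.1 to 5832.1 on GFP arrays, 3110.7 to 6735.7 on PRWT arrays and 5548.2 to 7419.7 on PR2VR arrays. Of the 8 myeloid markers on the arrays, 7 lay above the filter on low signals, while SPI1 lay below it. Summed marker signal was 45521.5 to 136577.4 for myeloid cells, led by LAPTM5, and 3662 to 17695.6 for B cells, led by PAX5. It was 1293.2 to 3808 for epithelium and fibroblasts, 513.9 to 1933.5 for T cells and 256.2 to 1284.5 for erythroid cells. In bulk RNA, fewer cells of a type and less RNA per cell cannot be told apart.

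All 51 genes passed the filter on low signals, as did 13959 genes in all. The median ribosomal protein gene lay at the 99.6th to 99.8th percentile of gene signals on every array. Together the 51 probe sets held 5.22% to 10.02% of the summed signal of all genes. The brightest probe sets were those of RPL7, RPS16 and RPL37A, with means over the arrays of 17.47, 17.46 and 17.41 on the scale of log2(signal + 62.5), the scale of all log2 values here. The dimmest were those of RPL36A (9.17), RPLP2 (10.61) and RPL27A (12.45). For each of these dim genes the rule left out a further probe set that lists several symbols, so their values rest on dim probe sets only. Brightness also depends on the probes, so this order is not an order of RNA levels.

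At 6 h the share of signal in ribosomal protein genes was 5.71% and 8.0% on GFP arrays 1 and 2, 5.98% and 10.02% on PRWT arrays 1 and 2, and 6.38% and 7.12% on PR2VR arrays 1 and 2. The values at 9 h were 6.43% and 6.18% on the GFP arrays, 6.62% and 6.04% on the PRWT arrays, and 6.17% and 5.22% on the PR2VR arrays. At 6 h all 3 number 2 arrays lay above all 3 number 1 arrays, and at 9 h number 2 lay below number 1 in each construct, with the GFP value of number 2 just above the PR2VR value of number 1. A single array, PRWT number 2 at 6 h, held the highest signal of 46 of the 51 genes, and its RPS23 signal of 289408.3 was the highest of any probe set on any array. PR2VR number 2 at 9 h held the lowest signal of 26.

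**Figure D1:**
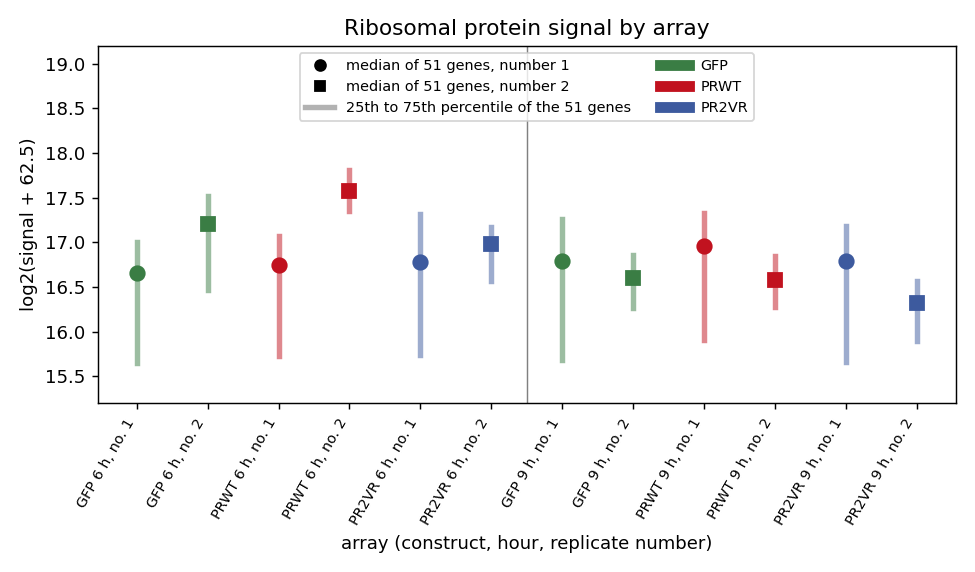
Median log2(signal + 62.5) of the 51 ribosomal protein genes on each array (circles for number 1, squares for number 2) with bars from the 25th to the 75th percentile of the genes, coloured by construct. The bars are longer on the 6 number 1 arrays (1.35 to 1.59) than on the 6 number 2 arrays (0.45 to 1.06), and the PRWT number 2 array at 6 h has the highest median, 17.58.

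The spread among the genes also followed the number. On the 6 number 1 arrays the distance between the 25th and 75th percentile of the 51 genes was 1.35 to 1.59 log2 units, and on the 6 number 2 arrays it was 0.45 to 1.06, with no overlap. Over the 48 genes with a mean above 15 it was 1.03 to 1.49 and 0.42 to 0.85. The 416 other genes as bright as this had 0.80 to 1.26 on number 1 arrays and 0.81 to 1.13 on number 2 arrays, which overlap. These other genes are all that the rule did not take, and include the ribosomal protein gene RPS4X and TOP genes such as EEF1A1. These are descriptions of 4 sets of 3 arrays (1 hour and 1 number each), with no test. The genes with the widest range over the 12 arrays were RPL35A (3.95), RPL34 (3.59) and RPS27 (3.04), and those with the narrowest were RPL6 (0.81), RPLP1 (0.94) and RPL10A (1.04).

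**Figure D2:**
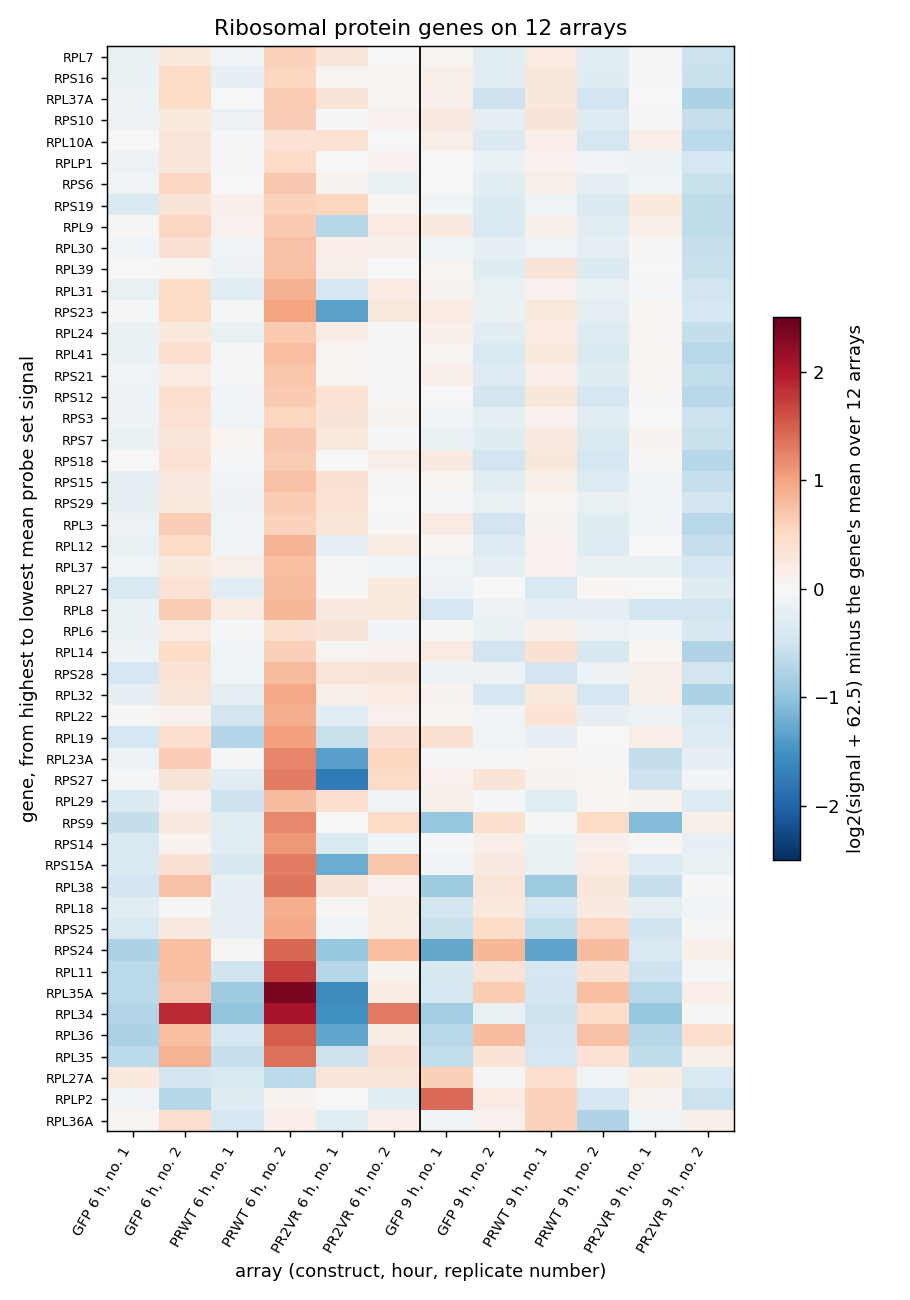
Each row is 1 ribosomal protein gene, ordered by the mean signal of its probe set, and each column is 1 array; colour gives log2(signal + 62.5) minus the gene's mean over the 12 arrays, with 6 h left of the line and 9 h right of it. The PRWT number 2 array at 6 h is red for nearly all genes, and the lower rows above RPL27A show the alternation between number 1 and number 2.

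The first question of the design is whether expressing PML-RARA changed these genes. With both fusion constructs averaged over both hours and set against GFP, 0 of the 51 genes passed limma's test at an adjusted p under 0.05, and 0 had an unadjusted p under 0.05. Of all genes tested, 0.00716% passed, which is RARA itself, and 3.14% had an unadjusted p under 0.05. The differences ran from -0.30 to 0.34 with a median of 0.02, beside a median of -0.02 over all genes tested, and 28 were above 0 and 23 below. Standard errors (SE) were 0.20 to 0.64, with a median of 0.25. With the replicate number as a block, the median SE was 0.16 and still 0 genes passed, against 0.315% of all genes.

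RPS9, a small-subunit protein at the messenger RNA entry site, had the smallest unadjusted p among genes above 0. Its signal at 6 h was 50316 and 89344 on GFP arrays 1 and 2, 63437 and 174683 on PRWT arrays, and 75912 and 108128 on PR2VR arrays. At the later hour it was 39768 and 100942 on GFP arrays, 73793 and 107963 on PRWT arrays, and 35784 and 83609 on PR2VR arrays. The constructs overlapped at both hours, PRWT lay above GFP in all 4 sets of arrays that share hour and number, and number 2 was the higher array in every pair. Its difference between fusion and GFP cells was 0.34 ± 0.36 (SE, 8 against 4 arrays, adjusted p = 1.0, limma). The next was RPS19, which is mutated in Diamond-Blackfan anaemia, at 0.17 ± 0.24. Below 0 the smallest p belonged to RPLP2 (-0.30 ± 0.31) and RPS27 (-0.27 ± 0.38).

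At 6 h the fusion constructs differed from GFP by a median of 0.09, with 40 genes above 0 and 11 below, and at 9 h by -0.07, with 5 above and 46 below. With quantile normalization 28 were above 0 and 23 below at 6 h, and 22 above and 29 below at 9 h. Without GFP number 1 of that hour, 9 were above 0 and 42 below at 6 h, and 28 above and 23 below at 9 h. In each hour 0 of 51 genes passed by limma, as 0.00716% of all genes did. At an unadjusted p under 0.05 there were also 0 of 51, against 1.83% of all genes at 6 h and 2.08% at 9 h. With the replicate block there was 1 of 51 in each hour, against 786 and 882 of the 13959 genes tested, and 0 passed. At 6 h the genes with the smallest p were RPS28 (0.37 ± 0.34), RPS9 (0.54 ± 0.51), RPL36A (-0.34 ± 0.46) and RPS23 (-0.26 ± 0.44). At 9 h they were RPL34 (0.27 ± 0.91), RPS9 (0.14 ± 0.51), RPLP2 (-0.88 ± 0.44) and RPL27A (-0.25 ± 0.37). The difference between the hours in the fusion effect had a median of -0.17, and 0 genes passed (0.0% of all genes) or had an unadjusted p under 0.05 (0.759% of all genes). With the block 2 of the 51 had one, against 434 of all genes tested, and 0 passed. Without the block the smallest p values of this difference belonged to RPL34 (0.63 ± 1.28), RPL36A (0.29 ± 0.65), RPLP2 (-1.17 ± 0.63) and RPS28 (-0.46 ± 0.48).

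RPLP2, an acidic stalk protein that helps to bind elongation factors, had the most negative of these differences. Its signal at 6 h was 1406 and 890 on GFP arrays, 1205 and 1598 on PRWT arrays, and 1512 and 1249 on PR2VR arrays. At 9 h it was 4103 and 1733 on GFP arrays, 2275 and 1103 on PRWT arrays, and 1595 and 1014 on PR2VR arrays. The GFP number 1 array at 9 h stood above all others, and without it the difference between fusion and GFP cells over both hours was 0.01 in place of -0.30. The probe set is dim for a ribosomal protein gene, and the brighter of the 2 that carry this symbol alone. A further one that also lists SNORA52 was left out by the rule.

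Each construct was also set against GFP alone. PRWT differed from GFP by a median of 0.13, with 46 genes above 0 and 5 below, including all 19 small-subunit genes above 0. With quantile normalization the median was 0.02, with 33 above 0 and 18 below, and without PRWT number 2 at 6 h it was -0.10, with 5 above and 46 below. PR2VR differed from GFP by a median of -0.10, with 10 above and 41 below. In both comparisons 0 of 51 genes passed by limma or had an unadjusted p under 0.05, and 0.00716% of all genes passed. The unadjusted background was 2.06% of all genes for PRWT and 3.95% for PR2VR. With the replicate block still 0 passed. At an unadjusted p under 0.05 by limma with the block there was 1 of 51 for PRWT and 5 for PR2VR. Of all 13959 genes tested, 760 and 1546 had one. These comparisons share the GFP arrays. Within the 4 sets that share hour and number, 13 genes were higher in PRWT than in GFP in every set (8.5% of all genes) and 1 lower (8.4%). PR2VR was lower than GFP in every set for 10 genes (9.96% of all genes) and higher for 0 (10.3%). The smallest p values for PRWT belonged to RPS9 (0.57 ± 0.41), RPL37 (0.25 ± 0.23), RPL27A (-0.26 ± 0.30) and RPL36A (-0.24 ± 0.37). Those for PR2VR belonged to RPS19 (0.17 ± 0.27), RPS28 (0.17 ± 0.28), RPS27 (-0.64 ± 0.44) and RPS23 (-0.49 ± 0.36).

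The direct comparison of PR2VR with PRWT asks whether the protease-resistant form acts differently. The median difference was -0.24, beside -0.01 over all genes tested, with 4 genes above 0 and 47 below. By limma 0 of 51 passed (0.0% of all genes passed). Other bright genes were mostly lower too: 19 of 22 with means above 16.84 (median -0.16) and 270 of 394 with means from 15 to 16.84 (-0.13). Ribosomal protein genes in these bands had medians of -0.21 and -0.33. The other bright genes include RPS4X and TOP genes such as EEF1A1, so they are not all unrelated to the ribosome. RPL23A (-0.71 ± 0.39) and RPS27 (-0.75 ± 0.44) had the smallest p below 0, and RPL27A (0.29 ± 0.30) and RPS28 (0.07 ± 0.28) above 0. Of the 51 genes 0 had an unadjusted p under 0.05 (1.55% of all genes), and with the replicate block 11 had one, against 6.86% of all genes, led by RPL36 (-0.70 ± 0.16, adjusted p = 0.72, limma). Within the 4 sets of arrays that share hour and number, the median was 0.18 and -0.66 at 6 h for numbers 1 and 2, and -0.20 and -0.29 at 9 h. In 4 of 4 sets 11 genes were lower in PR2VR (6.93% of all genes) and 0 higher (7.54%). With quantile normalization the median over the 4 sets was -0.05, with 19 genes above 0 and 32 below. Without PRWT number 2 at 6 h it was -0.02, with 22 above and 29 below.

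RPS27, a small-subunit protein with a zinc finger, shows how 1 array enters this comparison. At 6 h its signal was 66818 and 194334 on the PRWT arrays and 23602 and 111812 on the PR2VR arrays, while GFP arrays read 77474 and 100500. At 9 h the signal was 85838 and 83273 on PRWT arrays, 56433 and 77111 on PR2VR arrays, and 86994 and 101114 on GFP arrays. PR2VR was the lowest construct on the number 1 arrays at both hours, and at 6 h its 2 arrays lay on either side of the GFP arrays. Leaving out single arrays moved the difference between PR2VR and PRWT for RPS27 from -1.31 to -0.19.

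**Figure D3:**
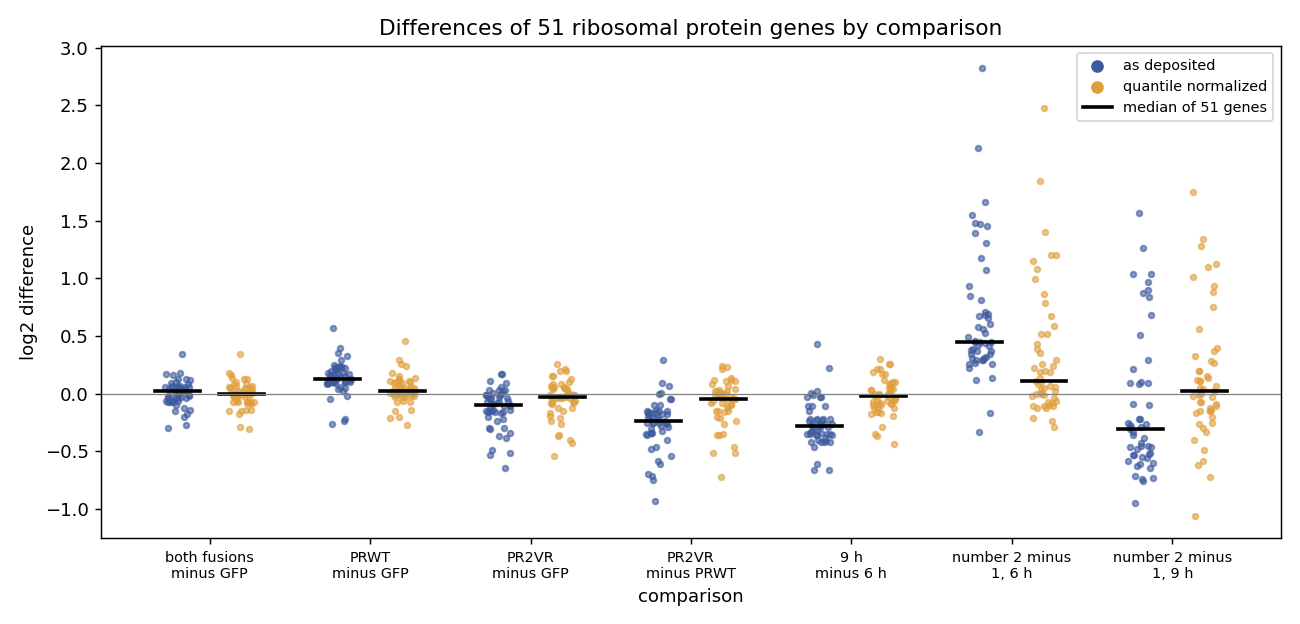
Log2 differences of the 51 ribosomal protein genes (points) in 7 comparisons, from signals as deposited (blue) and after quantile normalization (orange), with the median as a black line. Medians for the constructs lie between -0.24 and 0.13, and the comparison of number 2 with number 1 at 6 h has the highest median, 0.45, which is 0.11 after quantile normalization.

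Between the hours, ribosomal protein genes were lower at 9 h than at 6 h in 47 of 51 cases, with a median of -0.28, while the median over all genes tested was 0.13. Other bright genes were mostly lower too. With means above 16.84, 19 of 22 other genes lay below 0 (median -0.27), beside 24 of 24 ribosomal protein genes (-0.33). With means from 15 to 16.84, 259 of 394 other genes lay below 0 (-0.12), beside 22 of 24 (-0.25). The other genes here again include RPS4X and TOP genes such as EEF1A1. By limma 0 of 51 passed (0.0788% of all genes), and 1, RPL8, had an unadjusted p under 0.05 (15.1% of all genes). With arrays centred on their medians the shift over all genes was -0.02 and that of ribosomal protein genes -0.43, and with quantile normalization the latter was -0.02, with 23 above 0 and 28 below. The median lay below 0 under each of these scalings, and its size depended on the scaling.

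With the replicate number as a block, 2 of the 51 genes passed as lower at 9 h, against 3.79% of all genes passing as lower and 9.11% in all. This block takes the difference between the numbers within each hour out of the error. The SE and p-values with it therefore leave out the spread between the 2 sets of arrays of each hour, and too many genes may pass. RPL34, a large-subunit protein, differed by -0.66 ± 0.13 (adjusted p = 0.015, limma) and RPL8, a large-subunit protein near the peptidyl transferase centre, by -0.66 ± 0.14 (adjusted p = 0.018). The signal of RPL8 at 6 h was 98391 and 171182 on GFP arrays, 124136 and 196131 on PRWT arrays, and 129061 and 130079 on PR2VR arrays. At 9 h the values were 80539 and 99315 on GFP arrays, 94898 and 92091 on PRWT arrays, and 79391 and 80031 on PR2VR arrays. All its values at 9 h except that of GFP number 2 lay below all its values at 6 h. For RPL34 the hours overlapped, and without the 3 arrays of number 2 at 6 h the difference was 0.75 in place of -0.66. With the block, 26 genes passed as lower after centring on the median (8.33% of all genes), 0 after quantile normalization (3.97% of all genes as lower) and 0 without the 3 arrays of number 2 at 9 h, where 0 of all genes passed. The smallest p without the block belonged to RPL8 (-0.66 ± 0.20) and RPL30 (-0.40 ± 0.21) below 0, and to RPLP2 (0.43 ± 0.30) and RPL27A (0.22 ± 0.24) above 0.

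The largest differences among these genes lay between arrays of number 2 and number 1 within an hour, taken over the 3 constructs. At 6 h, 15 of the 51 genes were higher in number 2 and 0 were lower, where 2.49% of all genes tested passed as higher and 2.87% as lower. The median difference was 0.45, with 49 above 0, beside -0.09 over all genes. By subunit, 10 of 30 large-subunit genes and 5 of 19 small-subunit genes passed, and of the stalk genes RPLP1 (0.37 ± 0.16) and RPLP2 (-0.17 ± 0.28) did not. For 27 genes all number 2 values lay above all number 1 values, and for 0 genes below, against 8.68% and 14.5% of all genes.

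Markers of cell types also differed between the numbers. Summed myeloid signal was lower on number 2 in all 6 pairs of arrays. At 6 h it was 45521.5 to 61448.9 against 99457.1 to 136577.4, and at 9 h 51926.5 to 65276.6 against 76769.5 to 91112.7. LAPTM5 was the brightest marker in this sum, at 28309.7 to 123047.8 over the arrays, against 3294.3 to 21335.7 for LYZ, the next. Of the 7 tested myeloid markers 2 lay above 0 and 5 below at 6 h (median -0.24). At 9 h 6 lay above 0 and 1 below (median 1.06), so the sum went against most of them. Of these 7 markers 2 passed as lower at 6 h (2.87% of all genes), LAPTM5 (-1.17 ± 0.22) and LYZ (-1.65 ± 0.34). At 9 h LAPTM5 (-1.18 ± 0.22) passed as lower, while LYZ (1.45 ± 0.34) and CD4 (1.18 ± 0.25) passed as higher. Of all genes 7.72% passed as lower and 8.26% as higher at 9 h. Summed B cell signal, led by PAX5, was also lower on number 2 in 6 of 6 pairs, and that of epithelium and fibroblasts higher in 6 of 6. All 4 tested B cell markers lay below 0 at 6 h, and at 9 h 2 lay above 0 and 2 below (median 0.12). T cell signal was lower on number 2 in the 3 pairs at 6 h and higher in the 3 at 9 h, and erythroid signal was higher in 5 of 6 pairs. Of the 11 tested markers of these 4 lists 0 passed at 6 h. At 9 h CD79B (3.26 ± 0.44), CD3D (1.89 ± 0.52), KRT8 (1.78 ± 0.32) and COL1A2 (1.52 ± 0.39) were higher, and PAX5 (-1.26 ± 0.26) and KRT18 (-1.61 ± 0.46) were lower. The part of these markers in the differences of ribosomal protein genes was not tested.

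RPL34 had the largest difference. At 6 h its signal was 26161, 21858 and 15036 on the number 1 arrays of GFP, PRWT and PR2VR, and 158242, 181466 and 106878 on their number 2 arrays. At 9 h it was 24134, 30297 and 22524 on number 1 arrays and 38241, 59978 and 44143 on number 2 arrays. Number 2 was above number 1 without overlap at both hours, by 2.82 ± 0.18 at 6 h (7.07-fold, adjusted p = 0.00014, limma) and by 0.87 ± 0.18 at 9 h (1.83-fold, adjusted p = 0.014). RPL34 has 1 probe set.

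RPL35A, a large-subunit protein mutated in some patients with Diamond-Blackfan anaemia, read 27495, 23832 and 14570 on number 1 arrays and 70219, 226773 and 50311 on number 2 arrays at 6 h. At 9 h it read 32665, 32251 and 27241 on number 1 and 68297, 74687 and 49383 on number 2. The groups did not overlap at either hour, and PRWT number 2 at 6 h was far above the rest. The differences were 2.13 ± 0.30 at 6 h (adjusted p = 0.012, limma) and 1.04 ± 0.30 at 9 h (adjusted p = 0.041).

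RPL36, another large-subunit protein, read 23167, 29716 and 16215 on number 1 arrays and 67856, 114711 and 45756 on number 2 arrays at 6 h, and 24749, 29249 and 24280 against 68235, 66709 and 53439 at 9 h. Over both hours its highest number 1 value, 29716, lay below its lowest number 2 value, 45756. The differences were 1.66 ± 0.19 at 6 h (adjusted p = 0.01, limma) and 1.26 ± 0.19 at 9 h (adjusted p = 0.0052).

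RPS24, a small-subunit protein also mutated in Diamond-Blackfan anaemia, read 31248, 55149 and 27946 on number 1 and 91162, 145762 and 91446 on number 2 arrays at 6 h, and 22076, 21480 and 41677 against 96295, 92197 and 59017 at 9 h. The groups did not overlap at either hour, and PR2VR had the smallest separation at 9 h. The differences were 1.55 ± 0.29 (adjusted p = 0.02, limma) and 1.57 ± 0.29 (adjusted p = 0.0093). RPL11, which binds MDM2, read 32690, 37021 and 31561 on number 1 and 88194, 171242 and 55477 on number 2 arrays at 6 h, a difference of 1.48 ± 0.24 (adjusted p = 0.013). At 9 h it read 39211, 38387 and 36469 against 65702, 67517 and 51020, again without overlap, and the difference of 0.68 ± 0.24 did not pass (adjusted p = 0.08).

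The other genes that passed at 6 h were RPL9, RPL12, RPL19, RPL23A, RPL31, RPL35, RPS9, RPS15A, RPS23 and RPS27, with differences of 0.66 to 1.47. The median difference of the 51 genes was 0.55 between the GFP arrays, 0.81 between the PRWT arrays and 0.05 between the PR2VR arrays, and 49, 50 and 28 genes were above 0. The count of 15 depended on the construct pairs. In this fit an array whose partner is left out has its own mean, so the whole pair no longer enters the difference. Without either PRWT array at 6 h the median was 0.28, with 45 genes above 0. It was 0.42 without either GFP array and 0.70 without either PR2VR array, each with 49 above 0. Leaving out an array also leaves fewer degrees of freedom. The count moved too without single arrays of 9 h, where the median at 6 h stayed at 0.45. After quantile normalization 8 genes passed, all higher (4.72% of all genes passed in either direction). The ratio of GAPDH 3′ to 5′ signal at 6 h was 5.27, 4.04 and 3.99 on number 1 arrays and 4.79, 8.28 and 3.82 on number 2 arrays. That of actin was 23.8, 12.49 and 17.3 on number 1 arrays and 18.92, 27.5 and 56.88 on number 2 arrays, each in the order GFP, PRWT and PR2VR. The part of these ratios in the result was not tested.

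At 9 h the number 2 arrays differed from number 1 in both directions. Of the 51 genes 7 were higher and 8 lower, where 8.26% of all genes passed as higher and 7.72% as lower, and the median difference was -0.31 beside 0.09 over all genes. Number 2 lay above number 1 without overlap for 10 genes and below for 28, against 24.7% and 19.6% of all genes. The 5 largest rises were those of RPS24, RPL36, RPL35A, RPS9 (1.04 ± 0.23, adjusted p = 0.016, limma) and RPS25 (0.90 ± 0.21, adjusted p = 0.021), a small-subunit protein that some viral messenger RNAs need for initiation. RPL34 and RPL35 also rose. RPL34, RPL35, RPL35A, RPL36, RPS9 and RPS24 passed as higher at both hours, which makes 6 genes.

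The lower genes were led by RPLP2, whose difference was -0.95 ± 0.28 (adjusted p = 0.043, limma). RPL14, a large-subunit protein, read 122549, 137654 and 109407 on the number 1 arrays of GFP, PRWT and PR2VR and 75972, 79918 and 62937 on number 2 arrays at 9 h, a difference of -0.76 ± 0.18 (adjusted p = 0.021). RPL37A, a large-subunit protein with a zinc-binding fold, read 190622, 211808 and 175593 against 120998, 124562 and 100242 (-0.74 ± 0.19, adjusted p = 0.03). RPS18, which sits in the head of the small subunit, read 156924, 164412 and 137334 against 95824, 98571 and 81934 (-0.73 ± 0.16, adjusted p = 0.018). In each of these 3 genes all number 2 values lay below all number 1 values, while at 6 h the same probe sets differed by 0.45, 0.32 and 0.39 and did not pass.

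RPL32 differed by -0.71 ± 0.22 at 9 h (adjusted p = 0.047, limma), and RPL10A, RPL9 and RPS10 by -0.64, -0.60 and -0.55. RPL9 was the gene that passed at both hours in opposite directions, at 0.66 ± 0.16 and -0.60 ± 0.16. In all, 33 of the 51 genes were above 0 at 6 h and below 0 at 9 h, 16 were above 0 at both hours and 2, RPL27A and RPLP2, below 0 at both. The probe sets of these 2 genes are among the dimmest of the 51. Without either GFP array or either PRWT array at 9 h 0 genes passed, and of all 13959 genes 56 and 43 passed without a GFP array and 4 and 3 without a PRWT array. Without either PR2VR array at 9 h 2 passed (2.03% and 2.06% of all genes), and without PR2VR number 1 or number 2 at 6 h 32 and 33 passed (29.5% of all genes). As at 6 h, leaving out 1 array took its whole construct pair out of the fit of the numbers. After centring on the median 23 genes passed, 7 higher and 16 lower (16.5% of all genes). After quantile normalization 13 passed, 10 higher and 3 lower (14.5% of all genes), with a median of 0.02. The low GAPDH and actin ratios of the 3 number 2 arrays at 9 h moved with these differences, and their part was not tested.

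**Figure D4:**
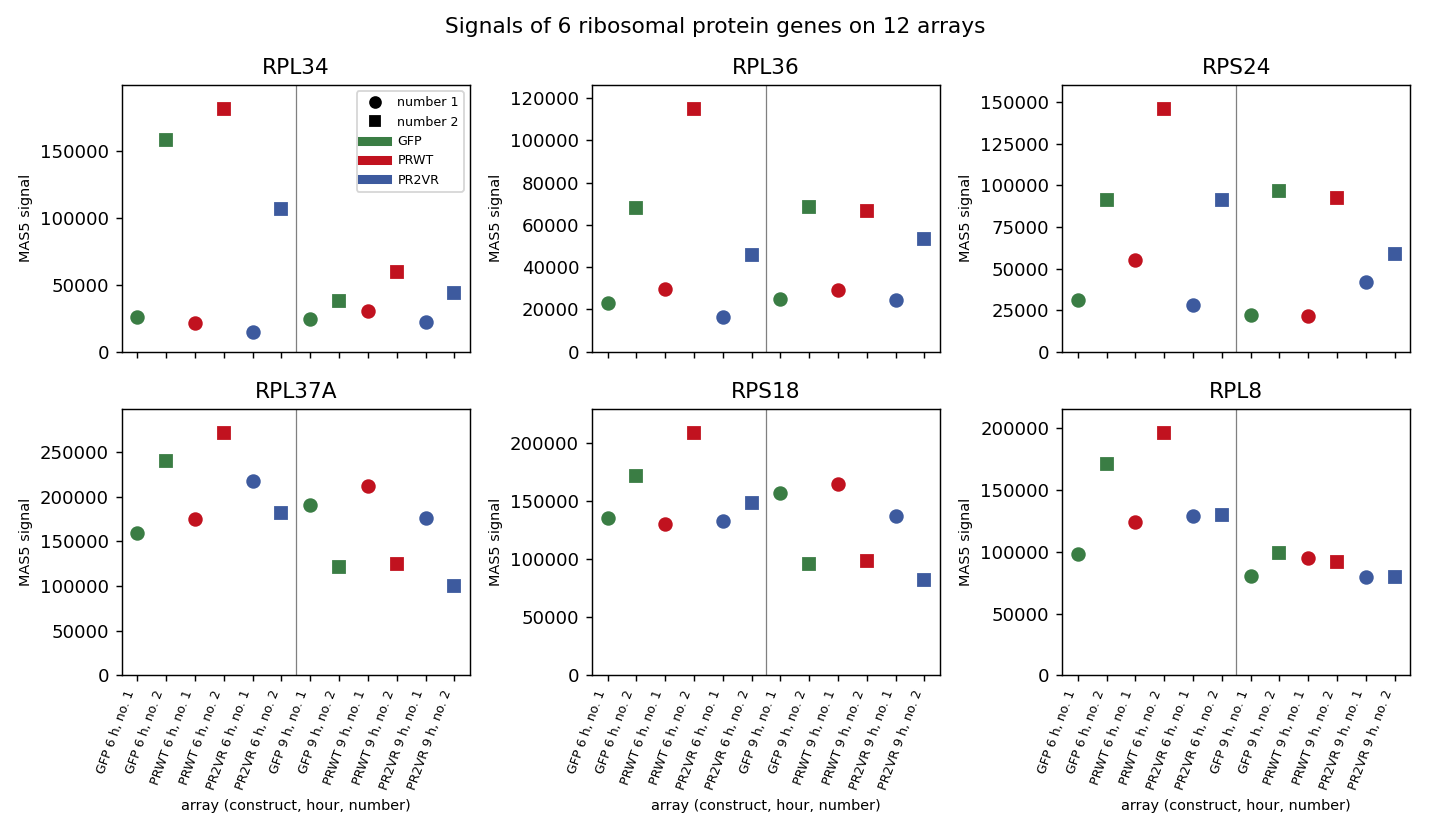
MAS5 signal of 6 ribosomal protein genes on the 12 arrays (circles for number 1, squares for number 2, coloured by construct). RPL34, RPL36 and RPS24 are higher on number 2 at both hours, RPL37A and RPS18 are lower on number 2 at 9 h, and RPL8 falls between 6 h and 9 h on most arrays.

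Further genes known from disease or regulation did not pass between the numbers by their brightest probe sets. RPS6, the target of S6 kinase, differed between number 2 and number 1 by 0.34 ± 0.20 at 6 h and -0.38 ± 0.20 at 9 h. A dimmer RPS6 probe set, with a mean of 16.06, passed at 6 h (1.27 ± 0.24, adjusted p = 0.02, limma on all probe sets). At 9 h it gave 0.63 ± 0.24 and did not pass. Another gave 0.37 ± 0.23 and 0.01 ± 0.23 and did not pass. RPS14, the gene of the 5q- syndrome, differed by 0.71 ± 0.23 and 0.09 ± 0.23, and RPS19 by 0.22 ± 0.23 and -0.48 ± 0.23. RPL3, which lies close to the peptidyl transferase centre, differed by 0.38 ± 0.21 and -0.56 ± 0.21, RPL41, a very short basic protein, by 0.45 ± 0.19 and -0.61 ± 0.19, and RPLP1 by 0.37 ± 0.16 and -0.22 ± 0.16.

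The differences between the numbers were ordered by the brightness of the probe set. Across the 48 genes with a mean above 15, Pearson's r between brightness and the difference was -0.79 at 6 h and -0.88 at 9 h (Spearman's rho -0.70 and -0.76). The differences at the 2 hours, which come from separate arrays, had r = 0.73 and rho = 0.63 across the same genes. Genes are not independent replicates here, they share the 12 arrays, and the mean brightness is made from the same values. Among the 24 genes with means from 15 to 16.84 the median difference was 0.78 at 6 h and 0.15 at 9 h, with 11 and 7 passing as higher. Among the 24 brighter genes it was 0.36 and -0.49, with 4 passing as higher at 6 h and 5 as lower at 9 h. Other genes tested showed 0.15 and -0.25 in the dimmer band (394 genes) and 0.25 and -0.41 in the brighter band (22 genes). In the brighter band the medians of ribosomal protein genes and of other genes were thus alike, and in the dimmer band they differed by more, as a description with no test. The other genes over 15 include RPS4X and TOP genes such as EEF1A1.

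**Figure D5:**
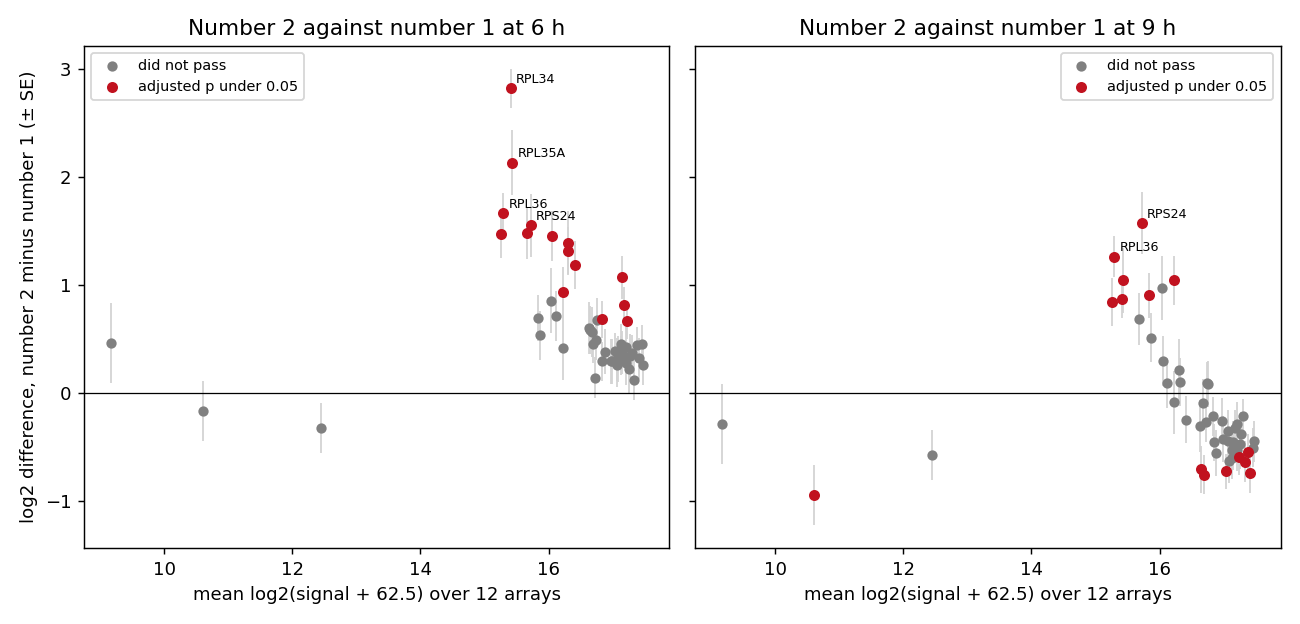
Log2 difference between number 2 and number 1 (± SE) against the mean log2(signal + 62.5) of the probe set over 12 arrays, at 6 h (left) and 9 h (right), for the 51 genes; red points passed at an adjusted p under 0.05. Among genes over 15 the differences fall as brightness rises, and at 9 h the brighter genes lie below 0.

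Most of these probe sets can match more than 1 transcript. Of the 51 probe sets, 24 carry the suffix s and 17 the suffix x, which Affymetrix gives to sets shared by several transcripts, and ribosomal protein genes have many near-identical processed pseudogenes, so single-gene values are uncertain. For 30 genes, 51 further probe sets lay above the filter, and the sign of the difference between the numbers matched that of the brightest probe set for 33 of them at 6 h and for 23 at 9 h. For RPL35A the second probe set gave 2.35 ± 0.22 at 6 h and 1.55 ± 0.22 at 9 h, close to the first, while a much dimmer one gave -0.22 ± 0.24 at 6 h. For RPL14 the second gave 0.94 ± 0.20 at 9 h (adjusted p = 0.013, limma on all probe sets), opposite to the first. At 6 h this second set passed at 1.49 ± 0.20 (adjusted p = 0.0082, limma on all probe sets), where the first did not pass.

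Signs opposite to that of the brightest probe set, where it or the other set passed, were also found at 6 h for RPS15A, RPS23 and RPS27, whose dimmer probe sets gave -0.76 ± 0.26, -0.51 ± 0.45 and -0.02 ± 0.32 and did not pass. At 9 h they were found for RPL22, RPL24, RPL37A, RPL38, RPLP2 and RPS24. The second probe set of RPL24 passed at 1.21 ± 0.37 against -0.52 ± 0.20 for the first. RPL22 had 1 set at 0.85 ± 0.22 and another at -0.87 ± 0.18, and RPL38 had 0.97 ± 0.30 and -0.83 ± 0.23, all of them passing in the fit on all probe sets. Dimmer probe sets of 1 gene also opposed each other, with 1 of them passing, for RPL22, RPL35A, RPS10 and RPS16 at 6 h and RPL14, RPL22 and RPS16 at 9 h. The 64 probe sets that name a ribosomal protein gene among several symbols were left out by the rule. Of these, 62 lay above the filter, with medians of 0.62 at 6 h and -0.04 at 9 h between the numbers, -0.27 between the hours and 0.02 between fusion and GFP cells.

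Other genes of the pathway were described from lists. They included 16 tested genes with a TOP start, or of ribosomal proteins whose symbols the rule did not take. Their median difference between number 2 and number 1 was 0.45 at 6 h. There 1 passed as higher (2.49% of all genes): NACA, a nascent chain binding protein (1.11 ± 0.22). The median at 9 h was -0.42, with 3 lower (7.72% of all genes): EEF1A1, the elongation factor that brings transfer RNA (-0.72 ± 0.19), RPS4X (-0.67 ± 0.18) and EIF3E (-0.63 ± 0.19). Between the hours all 16 were below 0, with a median of -0.32. With the block 3 passed as lower (3.79% of all genes), EIF4B (-1.14 ± 0.16), HNRNPA1 (-0.85 ± 0.15) and EIF3L (-0.56 ± 0.15). The error with the block leaves out the spread between the sets of an hour. Between fusion and GFP cells their median was -0.01 and 0 of 16 passed.

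The 75 mitochondrial ribosomal protein genes, which build the separate ribosome of mitochondria, had median differences between the numbers of 0.48 at 6 h and 0.40 at 9 h. At 6 h 13 were higher and 0 lower, where 2.49% and 2.87% of all genes passed, led by MRPS18C (1.27 ± 0.25), MRPL51 (0.99 ± 0.21) and MRPL35 (1.1 ± 0.25). At 9 h 3 were higher, among them MRPL23 (1.71 ± 0.41) and MRPL51 (0.82 ± 0.21), and 2 were lower, among them MRPL46 (-0.87 ± 0.23), both smaller shares than the 8.26% and 7.72% of all genes. Of 31 ribosome assembly genes, 1 rose at 6 h (2.49% of all genes), NOP10 of the H/ACA particles (1.95 ± 0.28). At 9 h 1 rose (8.26% of all genes) and 7 fell (7.72%), among them NOLC1 (-1.02 ± 0.18), RIOK2 (-1.07 ± 0.22) and NMD3 (-1.08 ± 0.23).

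Of 15 genes that control ribosomal protein supply, 3 were lower in number 2 at 9 h, where 7.72% of all genes passed as lower. They were MYC, which drives transcription of ribosomal protein genes (-0.88 ± 0.23), its partner MAX (-0.77 ± 0.20) and RPS6KB1, the S6 kinase gene (-0.81 ± 0.22). Their part in the differences of ribosomal protein genes was not tested. At 6 h 0 of the 15 passed. Of 8 tested relatives of ribosomal protein genes, RPS27L (2.01 ± 0.29) and RPL36AL (1.88 ± 0.31) were higher in number 2 at 6 h (2.49% of all genes). At 9 h RPL39L (1.78 ± 0.42) and RPS27L (0.96 ± 0.29) were higher (8.26% of all genes). Between fusion and GFP cells 0 genes of these 4 lists passed.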

How the data were processed

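RNA of 12 samples was measured on Affymetrix arrays, and the deposited intensity values are linear signals computed with MAS5, per the submitters' processing notes (version not given in the sources used here). They were already scaled and were used on the scale of log2(signal + 62.5); this offset is the table's 20th percentile and understates changes of dim genes. Per gene the brightest probe set with 1 symbol was taken (41091 of 54675 probe sets have 1 symbol, 1801 several and 11721 none). Genes were tested where the mean reached the 40th percentile of probe sets (a signal of 168.9). limma 3.58.1 in R 4.3.3 was fitted with 1 mean per construct and hour (6 residual degrees of freedom), with trended variances and Benjamini-Hochberg adjustment over all genes tested at a threshold of 0.05, after a check on simulated data. Numbers were compared by adding the number within each hour to the fit (4 residual degrees of freedom). The number of arrays limits the precision.

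Same-numbered arrays deviated together (r of 0.36, 0.15 and 0.21 for the construct pairs of 6 h and 0.60, 0.63 and 0.56 for those of 9 h), so the numbers in the titles were taken to pair the arrays, and the block is given where it changes a call. At most 0.0677% of probe sets were equal on any 2 arrays. Named genes were RPLP1, RPLP2, RPS6, RPL11, RPS19, RPS14, RPL3 and RPL41, up to 5 per direction that passed or else the 2 with the smallest p, the brightest, dimmest, widest and narrowest, and genes whose probe sets disagreed. RPLP0, RPSA, RPL5, RPL10 and RPS27A were not analysed here. The genes, lists and tests were chosen with earlier results of these data known.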

Additional observations from a re-analysis of the deposited data

How the results depend on the processing

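In the comparisons between constructs, 0 of the 51 genes passed by limma under any setting that kept all 12 arrays, the replicate block included. The medians moved by less than the spread between replicates, an SD of 0.35. That bound is wider than the medians, which ran from -0.24 to 0.13, so a change of sign can fall within it. Without PRWT number 2 at 6 h the median for PRWT against GFP went from 0.13 to -0.10. Counts that moved by over 1.5 times were those between hours and those between the numbers. Between hours 2 genes passed with the replicate block (9.11% of all genes) and 26 with the block centred on the median (11.5%), against 0 without it. The error in both of these leaves out the spread between the sets of an hour. At 9 h the 15 genes became 9 without the filter, 23 centred on the median, 3 without the variance trend, 9 with the mean of all probe sets and 9 with probe sets without the x or s suffix, and 0 to 33 when single arrays were left out. At 6 h the 15 became 8 with quantile normalization, 1 without the trend, 8 with the mean of all probe sets and 8 without x or s probe sets, and 1 to 38 when single arrays were left out. Leaving out single arrays gave medians of -0.12 to 0.16 for fusion against GFP, -0.17 to 0.37 at 6 h, -0.18 to 0.04 at 9 h, -0.44 to 0.10 for the difference of the hours, -0.10 to 0.36 for PRWT, -0.23 to 0.04 for PR2VR, -0.42 to -0.02 for PR2VR against PRWT, -0.43 to -0.15 for 9 h against 6 h, and 0.28 to 0.70 and -0.39 to -0.28 for number 2 against 1 at 6 h and 9 h.

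Of the 714 values of named genes under settings other than leaving out 1 array, 654 kept direction and call and 20 turned, and of 744 with 1 array left out, 626 and 28. With quantile normalization RPL3 (-0.01) and RPS19 (-0.12) turned at 6 h and RPLP1 (0.27) and RPS6 (0.11) at 9 h between the numbers. With the mean of all probe sets RPLP2 (0.24) and RPS14 (-0.31) turned at 6 h and RPL37A (0.13), RPS19 (0.20) and RPS6 (0.01) at 9 h. With probe sets without x or s suffix RPL35A (-0.22), RPLP2 (0.64) and RPS14 (-1.08) turned at 6 h, RPL37A (0.04), RPLP2 (0.82) and RPS24 (-0.08) at 9 h, and RPS27 against GFP for PR2VR (0.17) and both fusions (0.19). Without the 3 arrays of number 2 at 9 h RPL36A turned to 0.13 for PRWT against GFP, also with the block, and without those of 6 h RPL34 turned to 0.75 for 9 h against 6 h. With single arrays left out, the ranges that crossed 0 were, for fusion against GFP, -0.60 to 0.01 for RPLP2, 0.0 to 0.34 for RPS19 and -0.55 to 0.01 for RPS27. At 6 h they were -0.66 to 0.15 for RPS23 and -0.02 to 0.75 for RPS28, and at 9 h -0.58 to 0.07 for RPL27A, -0.06 to 0.60 for RPL34 and -0.53 to 0.81 for RPS9. For the difference of the hours they were -0.67 to 1.92 for RPL34 and -0.04 to 0.62 for RPL36A. For PRWT RPL36A ran from -0.57 to 0.09, for PR2VR RPS19 from -0.06 to 0.39 and RPS28 from -0.02 to 0.36, and for PR2VR against PRWT RPS28 from -0.16 to 0.29. Between the numbers RPLP2 ran from -0.44 to 0.06 and RPS19 from -0.01 to 0.57 at 6 h, and RPS14 from -0.01 to 0.25 at 9 h. In comparisons of the numbers, here and in the counts above, leaving out 1 array took its whole construct pair out of the fit. The cause of these changes was not tested. Settings with the block and quantile normalization, with the block and median centring, and without the arrays of number 2 at 6 h were chosen after seeing the data.

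With 2 arrays per group, 1 array can decide a value. No detection calls were used here, signals of probe sets that match several transcripts cannot be split between genes, and the scale of the deposited signals cannot show a change shared by all transcripts of a cell.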
